A study of Mus musculus with 12 samples.

Results

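Histone H3.3 is the form of histone H3 that cells place on DNA outside replication, and 10 mouse genes of its supply line were followed through the RNA of newborn cortex. They are the H3.3 genes H3f3a and H3f3b and 8 genes of proteins that carry or deposit H3.3, taken by name from the 51912 gene lines of each count file. The deposition genes are Hira, Ubn1, Ubn2 and Cabin1 of the HIRA complex, Asf1a, the pair Daxx and Atrx, and Dek. The study compared 3 genotypes at postnatal day 0, with 4 RNA libraries each. In the group labelled dKO-E, H3f3a and H3f3b are conditionally knocked out with Emx1-Cre, a driver active in cortical progenitors and therefore in the excitatory neurons and glia they produce. In the group labelled dKO-N the same genes are knocked out with Neurod6-Cre, a driver active in new excitatory neurons that have left the cell cycle. The libraries labelled control carry that label as their genotype, and whether they carry conditional alleles without a Cre is not given in the sources used here. Either driver leaves interneurons, microglia, vessels and meninges with intact genes, and the tissue was whole cortex, so RNA from such cells is part of every value.

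H3.3 differs from the replication-coupled H3 proteins in a few residues that let a separate set of chaperones recognise it. The HIRA complex deposits it at active genes and regulatory elements, with ASF1A delivering the H3-H4 dimer, whereas DAXX with the remodeller ATRX deposits it at telomeres, repeats and silent heterochromatin. Neurons stop replicating their DNA, so replacement of old H3 in their chromatin depends on this replication-independent supply.

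The H3.3 genes encode an identical protein through different DNA, and their coding sequences are shown because a read must tell them apart before either gene can be measured. The first 300 bases from the start codon are given, on the coding strand, as annotated in GENCODE M21 (mm10), and capitals mark every base at which one differs from the other.
H3f3a: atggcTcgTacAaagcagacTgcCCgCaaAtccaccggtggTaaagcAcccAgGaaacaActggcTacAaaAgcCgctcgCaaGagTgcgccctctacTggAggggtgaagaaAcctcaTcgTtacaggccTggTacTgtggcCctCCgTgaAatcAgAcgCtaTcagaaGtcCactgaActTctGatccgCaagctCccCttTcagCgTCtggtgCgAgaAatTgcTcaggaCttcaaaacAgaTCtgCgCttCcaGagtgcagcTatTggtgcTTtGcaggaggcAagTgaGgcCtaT
H3f3b: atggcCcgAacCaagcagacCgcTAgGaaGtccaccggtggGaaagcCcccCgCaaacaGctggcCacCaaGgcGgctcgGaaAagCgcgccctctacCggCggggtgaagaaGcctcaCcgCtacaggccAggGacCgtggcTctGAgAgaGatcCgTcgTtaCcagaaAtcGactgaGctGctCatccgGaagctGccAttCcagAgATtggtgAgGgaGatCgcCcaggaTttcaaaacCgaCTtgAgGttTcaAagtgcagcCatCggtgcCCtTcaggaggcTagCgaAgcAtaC
Over all 411 coding bases 95 differ, an identity of 76.9%. The differences fall in 83 codons, all of which are synonymous, and 81 of the 95 lie at the third codon position. The longest stretch without a difference is 23 bases, so a read over more than 23 coding bases meets at least 1 difference. Confusion is closer at hand with processed copies of H3f3a: its coding sequence is 98.1% identical to H3f3a-ps1, 98.8% to H3f3a-ps2 and 99.0% to H3f3c, whereas H3f3b is between 75.7% and 76.4% identical to them. Those 3 copies together held 0 counts in dKO-E, 1 in dKO-N and 16 in control, against 38 to 234 counts of H3f3a in single control libraries. Of these 16 counts, 4 were in control 2 and 10 in control 4, the libraries with most H3f3a.

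The promoters of H3f3a and H3f3b differ as well, and those of Asf1a and Dek are shown with them because these genes were the deposition genes higher in dKO-E. Each line gives 250 bases before and 50 after the annotated start, 5′ to 3′ on the gene's strand, from RefSeq on GRCm38.p6, for H3f3a at chr1:180813556-180813855 (minus strand), H3f3b at chr11:116024455-116024754 (minus strand), Asf1a at chr10:53596711-53597010 (plus strand) and Dek at chr13:47106172-47106471 (minus strand). Capitals mark the CCAAT box in either orientation (CCAAT or ATTGG) and the TATA motif TATAAA.
H3f3a promoter: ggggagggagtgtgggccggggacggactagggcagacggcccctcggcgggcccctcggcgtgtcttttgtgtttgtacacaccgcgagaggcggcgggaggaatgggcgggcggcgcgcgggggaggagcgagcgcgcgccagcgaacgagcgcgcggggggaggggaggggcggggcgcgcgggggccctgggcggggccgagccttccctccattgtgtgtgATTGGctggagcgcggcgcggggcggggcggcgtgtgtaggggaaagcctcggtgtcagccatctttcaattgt
H3f3b promoter: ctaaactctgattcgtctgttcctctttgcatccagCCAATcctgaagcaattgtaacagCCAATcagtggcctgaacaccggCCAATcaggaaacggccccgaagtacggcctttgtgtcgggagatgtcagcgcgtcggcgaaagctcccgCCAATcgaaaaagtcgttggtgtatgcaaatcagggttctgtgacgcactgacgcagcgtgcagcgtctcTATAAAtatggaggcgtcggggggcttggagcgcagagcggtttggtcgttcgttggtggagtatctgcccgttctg
Asf1a promoter: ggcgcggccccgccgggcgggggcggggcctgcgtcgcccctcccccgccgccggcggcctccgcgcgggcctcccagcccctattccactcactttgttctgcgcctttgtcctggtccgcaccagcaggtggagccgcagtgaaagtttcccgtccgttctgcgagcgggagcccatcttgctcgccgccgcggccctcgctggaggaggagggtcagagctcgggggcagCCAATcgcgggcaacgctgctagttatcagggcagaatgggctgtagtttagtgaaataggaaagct
Dek promoter: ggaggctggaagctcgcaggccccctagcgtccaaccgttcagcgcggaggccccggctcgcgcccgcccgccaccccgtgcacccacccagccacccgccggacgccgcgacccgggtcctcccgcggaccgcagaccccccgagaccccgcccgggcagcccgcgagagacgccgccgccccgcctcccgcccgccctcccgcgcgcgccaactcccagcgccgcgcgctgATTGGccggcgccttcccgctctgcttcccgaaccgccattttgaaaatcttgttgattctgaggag
The H3f3b window held 4 CCAAT boxes, all in the same orientation, and 1 TATAAA. Among 32544 RefSeq windows of 300 bases, 37.4% held at least 1 CCAAT box in either orientation, 1.06% held 4 or more, and 13.6% held TATAAA or its reverse complement. H3f3a, Asf1a and Dek each held 1 CCAAT box and no TATAAA. They held 6, 2 and 5 matches of the GC box GGGCGG or its reverse complement CCGCCC, of which H3f3b held 0, against 35.9% of windows with at least 1. The G and C content was 74% for H3f3a, 69% for Asf1a and 75.7% for Dek, but 55% for H3f3b, near the 53% median of all windows. With 24 CpG dinucleotides the H3f3b window was still above the median of 7, below the 39 of H3f3a. These matches describe letters in the windows and not bound sites. The windows of H3f3a and H3f3b lie inside the genes as counted, whose 5′ ends are at 180813943 and 116027962. The gap is the larger for H3f3b, so its window does not show the start of the gene as counted.

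Library totals lay between 722080 and 3502017 counts in genes, so that the floor of 3 counts corresponds to 0.857 to 4.15 CPM, the unit of a gene's counts relative to its library total, and 11076 genes passed the filter on low counts, among them all 10 genes described here. CPM values are scaled with TMM factors, and group values are means ± SD over 4 libraries. Nothing in the labels ties each library to its own animal, and p-values therefore cover the spread between these libraries only, which may be technical. Several libraries stood apart. The libraries labelled control 1 and 3 went against their label in H3f3a, as given below, and dKO-E 3 and 4 held 1035 and 274 counts of Y-linked genes, against at most 3 in any other library. Summed meningeal markers ran from 8.95 to 89.5 CPM in dKO-E, highest in dKO-E 1, against 12.2 to 21.3 CPM among dKO-N libraries and 9.05 to 14.5 CPM among controls. Fits were therefore also run without these libraries.

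The tissue label was checked against 4 markers of cortical excitatory neurons (Neurod2, Neurod6, Tbr1 and Bcl11b), all of which were detected. Their summed level was 660.3 to 739 CPM in dKO-E, 619 to 725 CPM in dKO-N and 646 to 727 CPM in control, so the 3 groups overlapped. Of 6 progenitor markers, Sox2 had 0 counts in every library, and the other 5 summed to 129 to 151 CPM in dKO-E, 159.9 to 187 CPM in dKO-N and 73.9 to 103 CPM in control. A 0 can also arise from the way reads were counted, given below, so it does not show that Sox2 RNA was absent. Astrocyte markers likewise lay higher than in control, at 199 to 218 CPM for dKO-E and 206 to 264 CPM for dKO-N, with 166 to 190.0 CPM for control, as did microglia markers in dKO-E, at 16.8 to 22.9 CPM against 9.18 to 13.4 CPM in control. Summed interneuron markers overlapped, at 255 to 376 CPM in dKO-E, 265 to 318 CPM in dKO-N and 266 to 314 CPM in control. Markers of vessels (endothelial and mural cells) lay lower than in control, at 62.1 to 81.6 CPM in dKO-E and 63.4 to 87.1 CPM in dKO-N, with 89.0 to 96.6 CPM in control. Oligodendrocyte lineage markers summed to 44.7 to 56.8 CPM in dKO-E and 43.0 to 67.5 CPM in dKO-N, whereas control had 61.8 to 74.9 CPM, and striatal markers to 327 to 372 CPM in dKO-E and 292 to 581 CPM in dKO-N, whereas control had 523 to 586 CPM. Both lists thus lay below control without overlap in dKO-E. Among dKO-N libraries, only dKO-N 3 (67.5 CPM) reached control in oligodendrocyte lineage markers, and only dKO-N 4 (581 CPM) in striatal markers. Microglia markers summed to 12.4 to 21.3 CPM in dKO-N, where only dKO-N 3 (12.4 CPM) reached control. Choroid plexus and red blood cell markers overlapped between all groups. Progenitor, astrocyte and vessel marker levels thus moved with genotype in both knockouts. Microglia, oligodendrocyte lineage and striatal markers did so in dKO-E and, but for dKO-N 3 or dKO-N 4, in dKO-N. The striatal sum was not split by its 6 genes, among them Foxp1, and which cells its RNA came from was not tested. In bulk RNA fewer cells of a type and less RNA per cell cannot be told apart. The part of these cell type markers in the results below was not tested.

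The way reads were counted could be read from the files. Of 232 protein-coding genes that lie wholly within introns of a gene on the same strand, 231 (99.6%) had 0 counts in all 12 libraries. Of 542 that lie within introns of a gene on the opposite strand only, 193 (35.6%) had 0 counts, and of 20662 not nested in another gene, 4546 (22.0%) had 0. This is the pattern of counts over whole gene bodies, introns included, with strand used and with reads shared by genes of the same strand left out, and the counts are taken as such here. For the genes described here this bears on Hira, of whose 93.3 kb 84.9% is shared with annotated genes on its own strand (Gm15799 and Gm28539), so that 14.1 kb could be counted. Asf1a lies wholly within Mcm9, and 54.0% of H3f3a is overlapped by H3f3aos and Gm17275, in each case on the opposite strand.

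Among the H3.3 genes, H3f3a (chromosome 1, 180800832 to 180813943, minus strand, mm10) checks the labels. The dKO-E libraries 1 to 4 held 30.0, 28.4, 25.8 and 22.9 CPM of it, dKO-N 1 to 4 held 36.7, 30.8, 22.1 and 37.8 CPM, and the control libraries 1 to 4 held 17.7, 117, 16.4 and 121 CPM. Control 2 and 4 stood far above every knockout library, and control 1 and 3, with 50 and 38 counts, lay below every one of them. Group means were 26.8 ± 3.11 CPM in dKO-E, 31.9 ± 7.23 CPM in dKO-N and 68.0 ± 58.9 CPM in control (SD, n = 4). The test was not passed by H3f3a in dKO-E (log2 fold change -1.28, 95% interval -2.79 to 0.22) or in dKO-N (log2 fold change -0.96, 95% interval -2.55 to 0.63). The adjusted p was 0.228 in dKO-E and 0.494 in dKO-N (edgeR's quasi-likelihood test with Benjamini-Hochberg adjustment over all genes tested, used for every adjusted p here). Over fits without 1 library the log2 fold change ran from -1.64 (without control 1) to -0.84 (without control 4) in dKO-E and from -1.32 to -0.52 for the same libraries in dKO-N, and it passed in none of them. A whole-gene count does not resolve the deleted part of a gene, so the level does not measure how much was removed. Progenitor, astrocyte and vessel markers were the lists that separated control from both knockouts, and in them control 1 and 3 lay with control 2 and 4. Control 1 and 3 held 97.8 and 73.9 CPM of progenitor, 174 and 190.0 CPM of astrocyte and 89.0 and 95.4 CPM of vessel markers. Whether the labels of control 1 and 3 are right was not tested. Because of the H3f3a values each direction below is one between labels.

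H3f3b (chromosome 11, 116021912 to 116027962, minus strand) was higher, not lower, in the group knocked out from progenitors onward. As for H3f3a, counts over the whole of H3f3b do not resolve its deleted part. Its level by library was 169.8, 176, 180.1 and 167 CPM for dKO-E 1 to 4, 146, 117, 113 and 111 CPM for dKO-N 1 to 4 and 121, 76.7, 143 and 84.2 CPM for control 1 to 4. The dKO-E libraries lay above all others, whereas dKO-N overlapped control, in which libraries 1 and 3, low in H3f3a, were the higher in H3f3b. H3f3b rose to 173 ± 6.10 CPM in dKO-E, against 106 ± 31.1 CPM in control (log2 fold change 0.69, SE 0.138, 1.62-fold, 95% interval 1.33 to 1.97, adjusted p = 0.000707). In dKO-N, at 122 ± 16.0 CPM, it did not pass (log2 fold change 0.16, 95% interval -0.15 to 0.47, adjusted p = 0.583). The difference between the knockouts passed, with dKO-E the higher (1.44-fold, log2 fold change 0.53, SE 0.147, adjusted p = 0.0303). It was lost when dKO-N 2, 3 or 4, or any single dKO-E library, was set aside (adjusted p up to 0.240). Without control 1 and 3, libraries set aside for their H3f3a that were also the controls highest in H3f3b, the log2 fold change of H3f3b was 1.11 in dKO-E (adjusted p = 2.04e-07) and 0.57 in dKO-N (adjusted p = 0.00749).

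**Figure D1:**
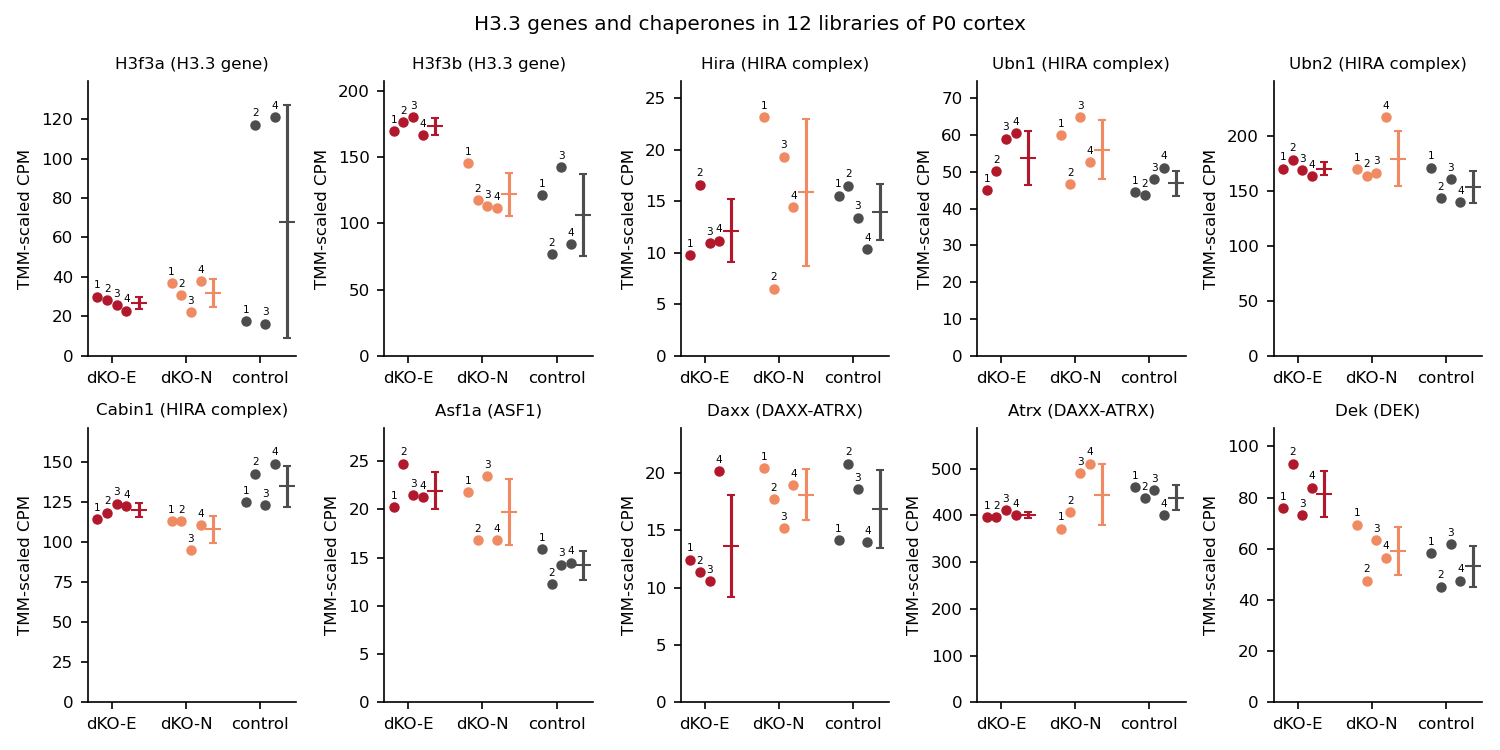
TMM-scaled CPM (vertical axes, linear from 0) of each of the 10 genes in every library, with dKO-E left of dKO-N and control; numbers beside points are replicate numbers and the bars are the group mean ± SD (n = 4). H3f3a splits control into 16.4 and 17.7 CPM against 117 and 121 CPM, and the dKO-E points of H3f3b and Dek lie above all points of the other groups.

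The balance between the sister genes was then taken from their counts within each library. H3f3a made up 15.0% of the counts of both genes in dKO-E 1 (46 of 306, Wilson 95% interval 11.5% to 19.5%), 13.9% in dKO-E 2, 12.5% in dKO-E 3 and 12.1% in dKO-E 4. In dKO-N 1 to 4 the share was 20.1%, 20.8%, 16.3% and 25.4%, the first from 27 of 134 counts with an interval of 14.2% to 27.7%. In the control libraries it was 12.7% in control 1 (interval 9.79% to 16.4%), 60.4% in control 2 (55.3% to 65.3%), 10.3% in control 3 (7.62% to 13.9%) and 58.9% in control 4 (54.0% to 63.7%). H3f3a thus held most of the counts of both genes in control 2 and 4 and the smaller part in the other 10 libraries. These shares are not corrected for length, and 13.1 kb of H3f3a could be counted against 6.05 kb of H3f3b. Per kb of countable gene, scaled to a common total, the highest control value of H3f3a was 202, below the lowest of H3f3b, 272. Per kb of exon the highest control value of H3f3a, 192, lay above the lowest of H3f3b, 141. The intervals cover counting error only. Group means were 13.4 ± 1.34% in dKO-E, 20.6 ± 3.70% in dKO-N and 35.6 ± 27.8% in control (SD, n = 4), and no dKO-E library reached the lowest dKO-N share.

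The summed level of both H3.3 genes was 199.9, 205, 206 and 189.6 CPM in dKO-E 1 to 4, 182, 148, 135 and 149 CPM in dKO-N 1 to 4 and 139, 194, 159 and 205 CPM in control 1 to 4. The means were 200.004 ± 7.41 CPM in dKO-E, 154 ± 20.1 CPM in dKO-N and 174 ± 30.7 CPM in control. Whole-gene counts do not resolve the deleted part of either gene, so the sum does not measure intact H3.3 RNA. The lowest dKO-E library lay above the highest dKO-N library, and the control libraries overlapped both knockouts. Control 2 and 4, with most H3f3a, had the higher sums of their group although their H3f3b was lowest.

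**Figure D2:**
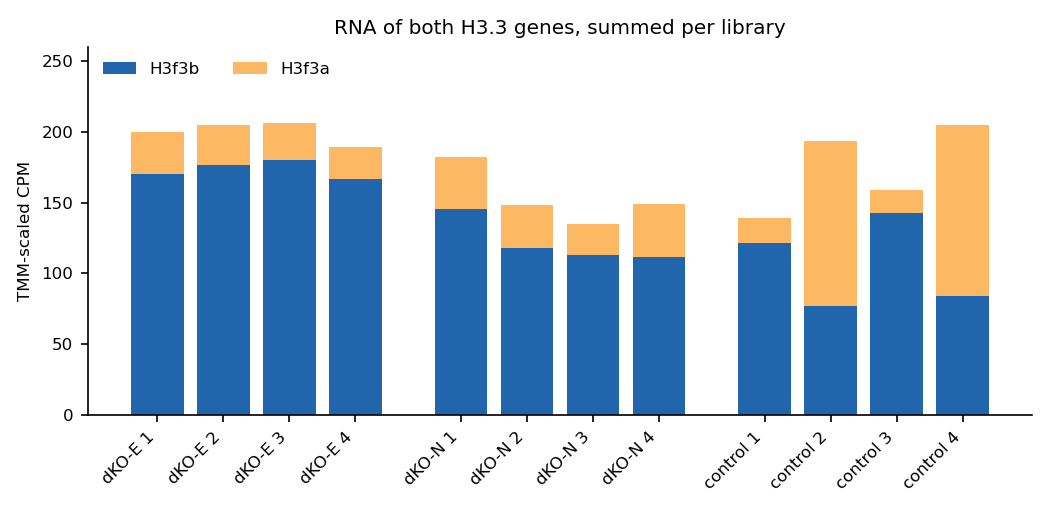
TMM-scaled CPM of H3f3a and H3f3b stacked for each of the 12 libraries (vertical axis, linear from 0), with dKO-E to the left, then dKO-N and control. CPM is not corrected for gene length. Total height runs from 135 CPM in dKO-N 3 to 206 CPM in dKO-E 3, and only control 2 and 4 have most of their bar from H3f3a.

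Calls among the 10 genes were counted beside those among all genes tested. In dKO-E, 3 of 10 passed the test, all higher (H3f3b, Asf1a and Dek), against a background of 20.2% of all genes tested and 10.1% higher. In dKO-N, 1 of 10 passed, lower (Cabin1), against 11.3% of all genes and 6.29% lower. Between the knockouts, 2 of 10 passed, both higher in dKO-E (H3f3b and Dek), against 6.84% of all genes, 3.11% higher and 3.73% lower. With 10 genes these shares, 30%, 10% and 20%, are read as results on single genes and not on the group. The median log2 fold change of the 10 was 0.01 in dKO-E, 0.12 in dKO-N and -0.06 between the knockouts, against 0.01, 0.01 and -0.002 over all genes. Groups did not overlap in CPM for 3 of 10 genes between dKO-E and control (25.5% of all genes), for 2 of 10 between dKO-N and control (13% of all genes) and for 3 of 10 between the knockouts (10.2% of all genes). The comparisons against control share the control libraries.

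**Figure D3:**
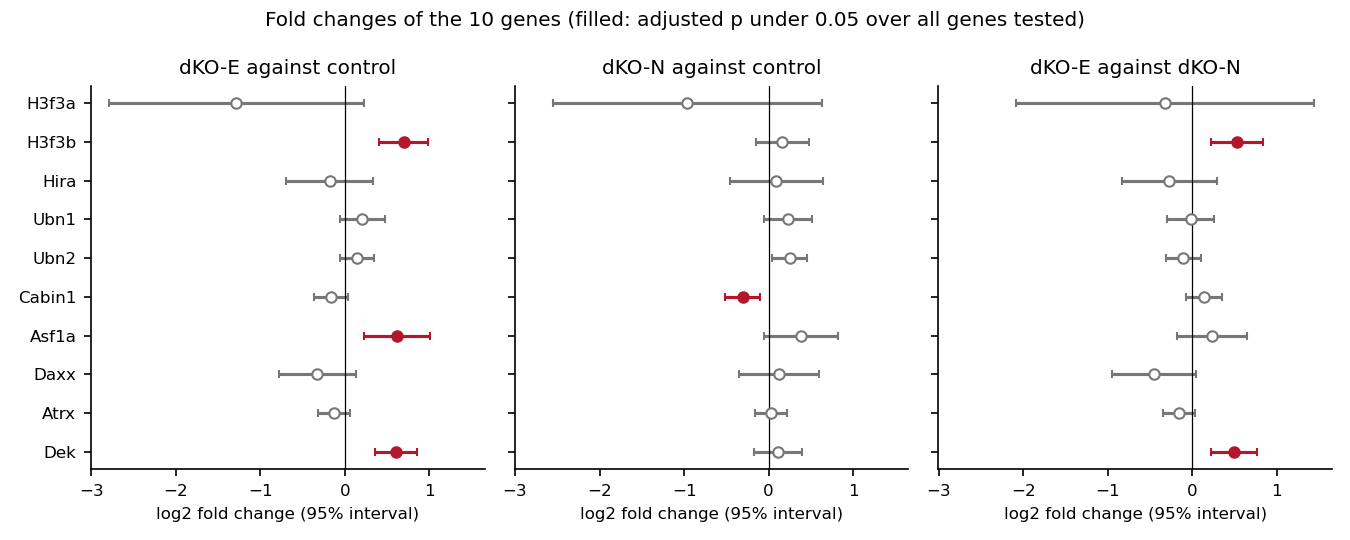
Log2 fold change of each gene (horizontal axis) with its 95% interval in dKO-E against control, dKO-N against control and dKO-E against dKO-N, from 1 edgeR fit of 12 libraries; filled points passed an adjusted p of 0.05. The interval of H3f3a in dKO-E runs from -2.79 to 0.22, while those of H3f3b (0.41 to 0.98) and Dek (0.35 to 0.86) stay above 0.

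Of the HIRA complex, none of 4 subunit genes passed in dKO-E and only Cabin1 passed in dKO-N. Cabin1 (chromosome 10, 75646112 to 75764341, minus strand) encodes a large scaffold subunit, first known as an inhibitor of calcineurin. Cabin1 RNA was found at 114, 118, 124 and 122 CPM among dKO-E 1 to 4, 113, 113, 95.1 and 111 CPM among dKO-N 1 to 4 and 125, 143, 123 and 149 CPM among control 1 to 4. Every dKO-N library lay below every dKO-E and control library, with dKO-N 3 the lowest. Cabin1 fell to 108 ± 8.56 CPM in dKO-N, against 135 ± 12.9 CPM in control (log2 fold change -0.31, SE 0.104, 0.808-fold, adjusted p = 0.0479). That call stood in 2 of 12 fits that left out 1 library, those without control 1 or control 3 (adjusted p 0.0409 to 0.150 over the 12), and it was lost in DESeq2 (adjusted p = 0.0713) and with library totals in place of TMM (adjusted p = 0.126). In dKO-E Cabin1 was at 119.7 ± 4.33 CPM and did not pass (log2 fold change -0.16, 95% interval -0.36 to 0.03, adjusted p = 0.248).

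Ubn2 and Ubn1 encode the ubinucleins, the subunits that recognise H3.3 in the complex. Ubn2 (chromosome 6, 38433950 to 38524825, plus strand) was the more counted of the pair. Libraries 1 to 4 of dKO-E had 170.5, 179, 169 and 164 CPM of Ubn2, those of dKO-N had 170.1, 164, 167 and 217 CPM, and those of control had 171, 144, 161 and 140.0 CPM. The high value of dKO-N 4 stood alone, and the other knockout libraries overlapped control 1. Ubn2 passed in neither knockout under TMM scaling (dKO-E log2 fold change 0.14, adjusted p = 0.338; dKO-N log2 fold change 0.25, 95% interval 0.04 to 0.46, adjusted p = 0.128). With library totals in place of TMM factors it passed in dKO-E (log2 fold change 0.27, adjusted p = 0.0256) and in dKO-N (0.31, adjusted p = 0.0272), a scaling that moved the median of all genes to 0.14 in dKO-E and 0.07 in dKO-N. Ubn1 (chromosome 16, 5050057 to 5086289, plus strand) averaged 53.7 ± 7.29 CPM in dKO-E, 56.0 ± 7.995 CPM in dKO-N and 46.8 ± 3.43 CPM in control, with 95% intervals of its log2 fold change of -0.06 to 0.47 in dKO-E and -0.06 to 0.51 in dKO-N (adjusted p = 0.288 and 0.356).

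Hira (chromosome 16, 18877037 to 18970309, plus strand), the WD-repeat core of the complex, was the least counted of the 10, with 7 to 48 counts per library. Its counts came to 9.80, 16.6, 10.9 and 11.2 CPM for dKO-E 1 to 4, 23.1, 6.53, 19.3 and 14.4 CPM for dKO-N 1 to 4 and 15.5, 16.5, 13.4 and 10.3 CPM for control 1 to 4. The dKO-N libraries held both the highest and the lowest value. No change of Hira passed, and the 95% interval of the log2 fold change was -0.70 to 0.34 in dKO-E (adjusted p = 0.674) and -0.46 to 0.64 in dKO-N (adjusted p = 0.899).

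Asf1a (chromosome 10, 53596757 to 53609225, plus strand) encodes the carrier that hands H3-H4 to the HIRA complex. Libraries 1 to 4 of dKO-E had 20.2, 24.7, 21.5 and 21.3 CPM of Asf1a, those of dKO-N had 21.8, 16.8, 23.4 and 16.8 CPM, and those of control had 15.9, 12.2, 14.3 and 14.5 CPM. All 8 knockout libraries lay above all 4 control libraries, including control 1 and 3. Asf1a rose to 21.9 ± 1.94 CPM in dKO-E, against 14.2 ± 1.4997 CPM in control (log2 fold change 0.62, SE 0.192, 1.54-fold, 95% interval 1.17 to 2.01, adjusted p = 0.0188). In dKO-N, at 19.7 ± 3.42 CPM, it did not pass (log2 fold change 0.39, 95% interval -0.05 to 0.82, adjusted p = 0.292), and neither did the difference between the knockouts (log2 fold change 0.24, adjusted p = 0.539). With 16 to 61 counts per library the dKO-E call was lost without control 2 (adjusted p = 0.0642), without dKO-E 2 (0.0799), without control 1 and 3 (0.0678), without dKO-E 3 and 4 (0.0844), in DESeq2 (0.0695) and with all libraries thinned to the smallest total (0.632).

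The DAXX-ATRX branch did not pass the test in any comparison. Atrx (chromosome X, 105797615 to 105929403, minus strand), a remodeller of the SNF2 family, was the most counted of the 10, with 273 to 1698 counts per library. Atrx RNA came to 396, 396, 411 and 400.5 CPM for dKO-E 1 to 4, 371, 407, 489 and 510.1 CPM for dKO-N 1 to 4 and 461, 437, 454 and 399.9 CPM for control 1 to 4. The dKO-E libraries were the most alike, and dKO-N spread over both sides of control. The 95% interval of its log2 fold change was -0.32 to 0.06 in dKO-E (adjusted p = 0.370) and -0.16 to 0.22 in dKO-N (adjusted p = 0.906). Daxx (chromosome 17, 33909414 to 33915590, plus strand), the chaperone that binds H3.3 in this branch, had 12.4, 11.3, 10.6 and 20.1 CPM for dKO-E 1 to 4, 20.4, 17.7, 15.2 and 18.9 CPM for dKO-N 1 to 4 and 14.1, 20.8, 18.6 and 13.9 CPM for control 1 to 4. Libraries 1, 2 and 3 of dKO-E lay below every other library, and dKO-E 4 was among the highest. Its log2 fold change was -0.33 in dKO-E (95% interval -0.78 to 0.13, adjusted p = 0.342) and 0.13 in dKO-N (95% interval -0.35 to 0.60, adjusted p = 0.817). Without dKO-E 4 the log2 fold change in dKO-E was -0.56 (adjusted p = 0.109), and over all fits without 1 library it lay between -0.56 and -0.21, the smallest size without dKO-E 3.

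Dek (chromosome 13, 47084775 to 47106201, minus strand) encodes an abundant DNA-binding protein reported to act as an H3.3 chaperone. Libraries 1 to 4 of dKO-E had 75.8, 93.2, 73.1 and 83.9 CPM of Dek, those of dKO-N had 69.4, 47.6, 63.4 and 56.5 CPM, and those of control had 58.3, 45.3, 61.8 and 47.5 CPM. As for H3f3b, all dKO-E libraries lay above all others, dKO-N overlapped control, and control 1 and 3 lay above control 2 and 4. Dek rose to 81.5 ± 9.06 CPM in dKO-E, against 53.2 ± 8.04 CPM in control (log2 fold change 0.61, SE 0.125, 1.52-fold, 95% interval 1.28 to 1.81, adjusted p = 0.000401). In dKO-N, at 59.2 ± 9.39 CPM, it did not pass (log2 fold change 0.11, 95% interval -0.17 to 0.40, adjusted p = 0.707), and the knockouts differed (log2 fold change 0.49, SE 0.136, adjusted p = 0.0215). The call in dKO-E held in 12 of 12 fits without 1 library and was lost when all libraries were thinned to the smallest total (log2 fold change 0.38, adjusted p = 0.137). The call between the knockouts was lost without dKO-N 2, dKO-N 4, dKO-E 2 or dKO-E 4 (adjusted p up to 0.0971) and without dKO-E 3 and 4 together (adjusted p = 0.0799).

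H3f3b and Dek followed each other across libraries. Over log2 CPM of the 12 libraries Pearson's r between them was 0.90, which placed Dek 7th among the genes tested in likeness to H3f3b. The points share the libraries, their depth and their scaling, and the 4 dKO-E libraries are highest on both axes, so r is given as a description only. It was 0.82 over the 8 libraries outside dKO-E and 0.84 without control 2 and 4, the libraries farthest from the median of H3f3b. Asf1a had r = 0.74 with H3f3b, and H3f3a had r = -0.72, which was -0.85 over the 8 libraries outside dKO-E and 0.01 without control 2 and 4. The most alike genes were C1ql3 (r = 0.94), Cir1 (0.94), Ccnt2 (0.93), Nup107 (0.92) and Atox1 (0.90), and the most opposed were Elmo2 (-0.90), Nisch (-0.90), Adamts2 (-0.88), Dlgap4 (-0.88) and Gm11223 (-0.87). C1ql3 and Atox1 averaged only 2.42 and 2.70 CPM in control, with lowest control libraries at 0.533 and 0 CPM, near the floor of 3 counts. For H3f3a the most alike were Zdhhc23 (r = 0.85), Noc4l (0.83), Rell1 (0.81), Phrf1 (0.76) and Cnih2 (0.74), and the most opposed Gm45062 (-0.84), Npas3 (-0.84), Fah (-0.83), Ireb2 (-0.82) and Crot (-0.81). Control 2 and 4 stand apart from the other 10 libraries in H3f3a, and without them r ran from 0.20 to 0.71 for these alike genes and from -0.88 to -0.08 for these opposed genes.

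**Figure D4:**
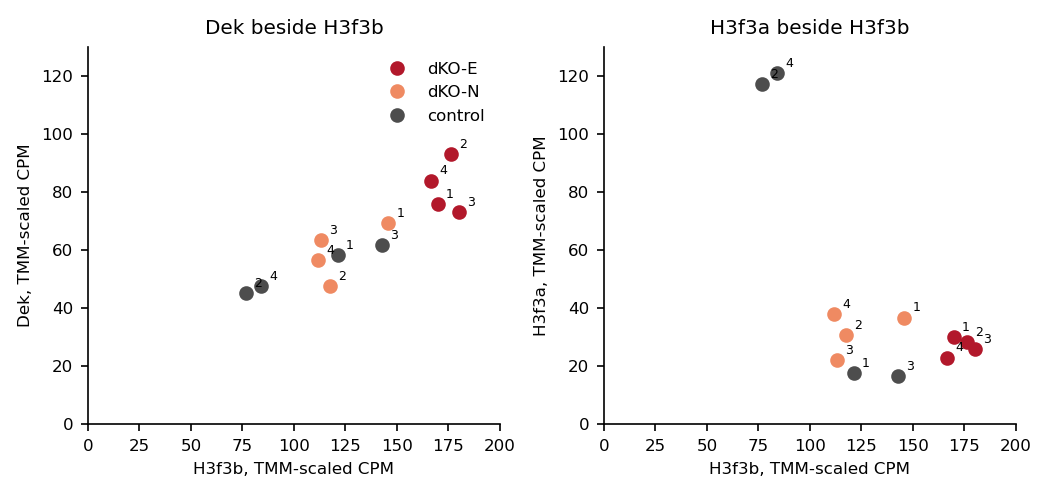
TMM-scaled CPM of Dek (left) and of H3f3a (right) against that of H3f3b, 1 point for each of 12 libraries, colored by group and numbered by replicate. All axes are linear from 0. The 4 dKO-E libraries lie at 167 to 180.1 CPM of H3f3b and 73.1 to 93.2 CPM of Dek, beyond the other 8 on both axes.

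Apart from the count shares of H3f3a and H3f3b given above, levels were compared between genes only per length. As counts per kb of exon scaled to a common total, the order in control was H3f3b at 197 ± 58.2, Atrx at 111 ± 6.84, H3f3a at 107 ± 92.6, Dek at 92.3 ± 14.3, Cabin1 at 61.3 ± 5.80, Ubn2 at 39.7 ± 3.88, Ubn1 at 31.3 ± 2.46, Daxx at 29.5 ± 5.70, Asf1a at 21.6 ± 2.41 and Hira at 12.4 ± 2.37 (SD, n = 4). The library ranges of Atrx and H3f3a, of H3f3a and Dek, and of Ubn1 and Daxx overlapped, and those of the other neighbours did not. In dKO-E the exonic level of H3f3b was 321 ± 9.81, that of Dek 141 ± 16.4, that of Atrx 102 ± 0.703 and that of H3f3a 42.2 ± 5.32, so Dek came directly after H3f3b in that group, with no overlap with H3f3b or Atrx. In dKO-N the values were 221 ± 32.1 for H3f3b, 110 ± 19.2 for Atrx, 100.4 ± 17.9 for Dek and 49.2 ± 12.9 for H3f3a. Because introns were counted, genes with long introns gain on this scale. Per kb of countable gene length the control order was led by H3f3b at 400.0 ± 130.3 and H3f3a at 114 ± 96.1, followed by Atrx at 75.6 ± 8.46, Daxx at 61.4 ± 10.4 and Dek at 56.4 ± 11.04, with Cabin1 at 25.7 ± 1.71 and Hira at 22.5 ± 4.86 last. Hira stood at 3.39 ± 0.733 per kb of whole gene, since most of it could not be counted.

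**Figure D5:**
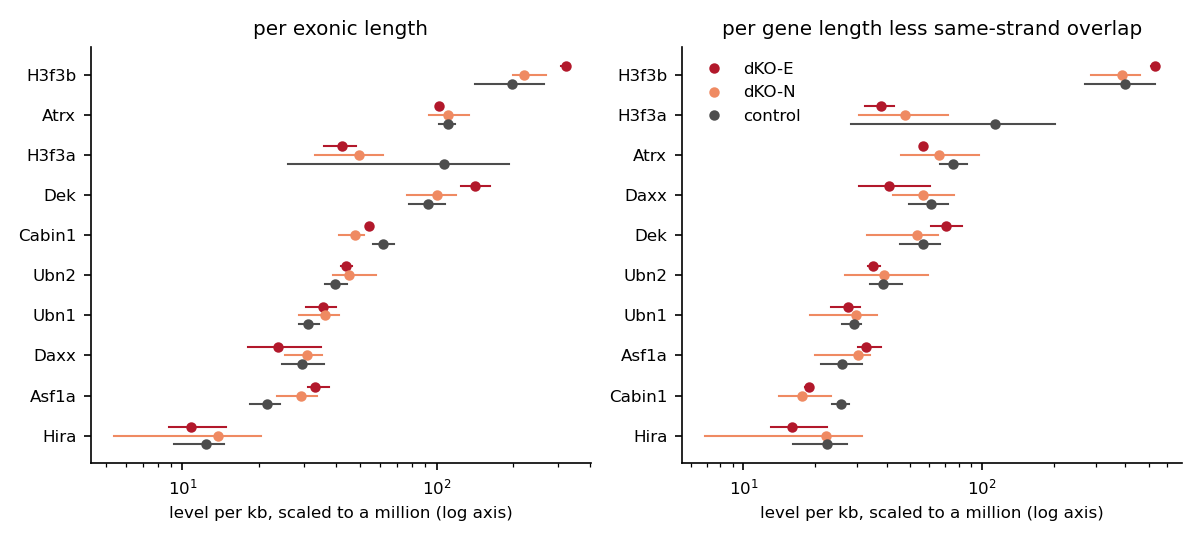
Level of each gene per kb of exonic length (left) and per kb of countable gene length (right), scaled to a common total, on logarithmic axes. Points are group means and lines run from the lowest to the highest library, colored by group. H3f3b is highest on both scales (197 and 400.0 in control), and Daxx moves up beside Dek when introns are included in the length (61.4 and 56.4 in control).

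Other genes of the H3 supply line were examined as lists. Of 21 other H3-H4 chaperone genes (CAF-1, FACT, NASP, nucleosome assembly proteins and others), 20 were tested and none passed in dKO-E or in dKO-N, against 20.2% and 11.3% of all genes called, with 6 and 2 at an unadjusted p under 0.05 and 0 called by DESeq2 in either. The most counted, Nap1l1 and Nap1l4, had log2 fold changes of 0.20 and 0.16 in dKO-E (adjusted p = 0.138 and 0.328) and of 0.17 and 0.11 in dKO-N (adjusted p = 0.298 and 0.658). The median of the list was 0.17 in dKO-E and 0.06 in dKO-N. Between the knockouts, 1 of 20 passed, against 6.84% of all genes, and DESeq2 called 0. Hjurp, the chaperone of the centromeric H3 variant, averaged 27.0 ± 2.83 CPM in dKO-E and 41.4 ± 19.4 CPM in dKO-N and was lower in dKO-E by the test (log2 fold change -0.80, adjusted p = 0.0448), a call that stood in 3 of 12 fits without 1 library, those without control 3, dKO-N 1 or dKO-N 3.

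Of 19 partners and readers of H3.3 chromatin, 18 were tested, of which 1 was higher and 1 was lower in dKO-E, against 10.1% of all genes in each direction. Cbx3, which encodes the heterochromatin protein HP1 gamma, rose to 71.8 ± 4.17 CPM in dKO-E, against 54.5 ± 3.27 CPM in control (log2 fold change 0.40, adjusted p = 0.0188). Pml, the organiser of the nuclear bodies that hold DAXX, fell to 3.18 ± 0.609 CPM in dKO-E, against 7.44 ± 0.796 CPM in control (log2 fold change -1.24, adjusted p = 0.0176). The call of Cbx3 was lost without control 1, control 4 or dKO-E 2 and that of Pml without dKO-E 2. Without control 1 and 3 together, neither passed (adjusted p = 0.163 for Cbx3 and 0.127 for Pml). In dKO-N, 1 of 18 passed, against 11.3% of all genes. Setdb1, an H3 lysine 9 methyltransferase gene, fell to 60.8 ± 10.2 CPM, against 82.4 ± 4.22 CPM in control (log2 fold change -0.40, adjusted p = 0.0316), a call lost without control 1, 3 or 4 or without dKO-N 2 or 3 (adjusted p up to 0.105). DESeq2 called none of these in either knockout, and between the knockouts edgeR called 0 of 18, with 3 at an unadjusted p under 0.05 and 0 in DESeq2.

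Of 9 genes of other replacement histones, all tested, 4 were higher in dKO-E and 1 in dKO-N, with none lower, against 10.1% and 5.04% of all genes higher. H1fx, a linker histone gene, rose to 12.6 ± 3.48 CPM in dKO-E, against 4.84 ± 2.09 CPM in control (log2 fold change 1.35, SE 0.352, adjusted p = 0.00519). H1f0, the linker histone gene linked to differentiated cells, rose to 69.5 ± 6.29 CPM in dKO-E, against 44.99 ± 4.46 CPM in control (log2 fold change 0.63, SE 0.131, adjusted p = 0.000415). The paired genes of H2A.Z rose as well, H2afz to 27.5 ± 2.49 CPM in dKO-E, against 17.0 ± 2.55 CPM in control (log2 fold change 0.67, adjusted p = 0.00741), and H2afv to 24.2 ± 3.63 CPM in dKO-E, against 12.9 ± 3.70 CPM in control (log2 fold change 0.85, adjusted p = 0.00227). H2afv also rose in dKO-N, to 24.2 ± 2.35 CPM, with a log2 fold change of 0.88 (SE 0.219, adjusted p = 0.00506). These 5 calls held in 12 of 12 fits without 1 library, and all but H1fx (adjusted p = 0.114) held without control 1 and 3. The list median was 0.58 in dKO-E and 0.38 in dKO-N, against 0.01 over all genes in each. DESeq2 called 4 genes of the list in dKO-E and 1 in dKO-N. Between the knockouts none passed in edgeR, with 1 at an unadjusted p under 0.05 and 0 in DESeq2.

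Of 12 replication-coupled H3 genes, whose transcripts lack a poly(A) tail and were retained by depletion of ribosomal RNA, 5 had enough counts to be tested and edgeR called 0 in each comparison, against 20.2% of all genes in dKO-E, 11.3% in dKO-N and 6.84% between the knockouts. At an unadjusted p under 0.05 there were 2 in dKO-E, 1 in dKO-N and 0 between the knockouts, and DESeq2 called 1, 0 and 0. The most counted, Hist1h3e, had a log2 fold change of 0.85 in dKO-E (adjusted p = 0.131) and 0.58 in dKO-N (adjusted p = 0.481), and Hist1h3i had 0.49 (adjusted p = 0.357) and 0.45 (adjusted p = 0.544). These genes are near-identical copies, so their counts are uncertain where reads could not be placed.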

How the data were processed

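Raw counts per gene, in whole numbers and not normalized, were deposited by the authors, 1 file for each of 12 libraries; ribosomal RNA was removed and libraries were made by ClickSeq, per the labels' protocols. Reads were processed with STAR, UMI-tools and HTSeq on mm10, per the submitters' processing notes; the sources used here give no version, option or annotation. Summary lines naming no gene (no feature 6.65% to 8.94% of each library, ambiguous 2.00% to 2.20%, multimapped 2.30% to 4.16%) were left out, and 51719 identifiers (99.6%) matched GENCODE M21. Chromatin and single-nucleus data named in the design were not analysed here.

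Counts in genes (722080 to 3502017 per library) were filtered with filterByExpr (minimum count 10), scaled by TMM and tested with edgeR 4.0.16 (glmQLFit with robust estimation, glmQLFTest; R 4.3.3, limma 3.58.1) in 1 fit of 12 libraries by group, with 9 residual degrees of freedom. P-values were adjusted by Benjamini-Hochberg over 11076 genes, with a threshold of 0.05. The standard error is the log2 fold change over the root of its F statistic. The code was tested on simulated counts. Tables and plots used Python 3.11.15, pandas 2.3.3, scipy 1.17.1 and matplotlib 3.10.9. Alternatives were DESeq2 1.42.0, other scalings and filters, thinning to 722080 counts, a replicate block and left-out libraries; joined pseudogene counts, countable gene length and the alternatives for the H3f3a share were added after seeing the data.

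The 10 genes, the gene lists and the alternatives were chosen with earlier results of these data known. Beside the 10 genes, up to 4 called genes of each chromatin list with the largest fold change are named per comparison, or the 2 most abundant where none was called, and the 5 genes most alike and most opposed to each H3.3 gene. Of 5 listed copies of the H3.3 genes, 3 are in the files and none passed the filter. Some genes of the lists are not reported here and were left out of the lists' counts and sums.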

Additional observations from a re-analysis of the deposited data

Results flagged for a closer look

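In 2 of 30 groups of 4 libraries examined (10 genes in 3 genotypes), a single library lay far from the other 3 (Dixon's test at 95%), and chance gives about 1 in 20. Ubn2 was at 217 CPM in dKO-N 4, the most deeply sequenced library of the series, where the other dKO-N libraries were at 164 to 170.1 CPM. Cabin1 was at 95.1 CPM in dKO-N 3, where the other dKO-N libraries were at 111 to 113 CPM. Without dKO-N 4 the log2 fold change of Ubn2 in dKO-N against control was 0.11, and without dKO-N 3 that of Cabin1 was -0.27.

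The knockouts differed from each other in a direct test for H3f3b (log2 fold change 0.53, higher in dKO-E in 4 of 4 libraries, edgeR adjusted p = 0.0303) and for Dek (log2 fold change 0.49, higher in dKO-E in 4 of 4 libraries, edgeR adjusted p = 0.0215). Y-linked counts were found in dKO-E 3 and 4, and without these libraries the log2 fold change was 0.53 for H3f3b (adjusted p = 0.172) and 0.56 for Dek (adjusted p = 0.0799).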

How the results depend on the processing

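H3f3b in dKO-E against control passed under every alternative run (edgeR and DESeq2, adjusted p 7.47e-08 to 0.0210), and Dek passed in all but the thinned counts. With counts thinned to the smallest total, the calls of Asf1a and Dek in dKO-E and of Cabin1 in dKO-N were lost. Among the genes described, 3 passed in dKO-E against control (1 with thinned counts, 2 to 3 without single libraries, 4 with library totals, which added Ubn2). Asf1a was lost in DESeq2 and without dKO-E 3 and 4. Without control 1 and 3 Asf1a was lost and H3f3a passed (log2 fold change -2.15, edgeR adjusted p = 9.7e-12). That pass of H3f3a is not independent of setting aside the controls low in it. In dKO-N 1 passed, and 0 did with DESeq2 size factors, without the filter, in DESeq2, with the 2 groups alone, without dKO-E 3 and 4, thinned, or with the replicate block; without single libraries 0 to 1 passed, and without control 1 and 3 it was 3 (H3f3a, H3f3b and Cabin1), none of which is independent of that choice, since the libraries, set aside for low H3f3a, were also the controls highest in H3f3b and lowest in Cabin1. Between the knockouts 2 passed, 0 without dKO-E 3 and 4 or thinned, and 0 to 2 without single libraries.

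Genes called numbered 2238 in dKO-E against control (1215 without control 1 and 3, 1225 without dKO-E 3 and 4, 1214 thinned, 1699 to 2753 without single libraries). In dKO-N against control they numbered 1255 (756 without control 1 and 3, 721 thinned, 972 to 1298 without single libraries). Between the knockouts they numbered 758 (488 with the 2 groups alone, 199 without dKO-E 3 and 4, 326 thinned, 300 to 1036 without single libraries, lowest without dKO-N 4). Library totals in place of TMM raised the share of calls that were higher to 73.9% in dKO-E and 57.8% in dKO-N, against 50.04% and 44.5%, and to 65.4% against 45.5% between the knockouts. The labels do not say whether replicate numbers pair the libraries. Deviations from group means correlated at -0.124 to 0.0131 in 12 same-numbered pairs and at -0.103 to 0.227 in 36 others. With 4 libraries per group these values cannot decide whether libraries share a litter or batch. With the replicate block 500 genes were called between the knockouts and Cabin1 was lost in dKO-N (adjusted p = 0.0630).

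Some log2 fold changes that passed in no fit changed sign, and the cause was not tested. In dKO-E against control, Hira was 0.41 with thinned counts and Atrx 0.0017 with library totals. In dKO-N against control, Asf1a was -0.058 thinned, Atrx -0.011 without the filter and -0.057 to 0.10 without single libraries, and Hira -0.076 to 0.31 without single libraries. Between the knockouts, Ubn1 was 0.048 with library totals, 0.0030 without the filter and -0.083 to 0.044 without single libraries, and Ubn2 was -0.16 to 0.033 without single libraries.

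Mean levels per kb of exon over 12 libraries moved beyond 1 SD with another length, since introns were counted. Per kb of whole gene and of countable gene, H3f3b stood at 438.8 in each, Hira at 3.05 and 20.2, Ubn1 at 28.8 in each, Ubn2 at 37.36 and 37.38, Cabin1 at 20.7 in each, Daxx at 52.9 in each, Atrx at 65.8 and 66.1, and Dek at 60.2 in each. The share of H3f3a was 27.3% to 44.0% in control without single libraries.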
